A study of Mus musculus with 8 samples.

Results

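The genes described here were 32 of the 32285 genes counted in each cell, chosen by name as the enzymes, transporters and regulators of glycolysis and of the hypoxia response, by a rule that takes no measured value. They were followed in OT-I T cells, CD8+ T cells with a receptor for an ovalbumin peptide, which were taken from OT-I:Rosa26-Cas9 mice of C57BL/6J background and carried a lentiviral guide library against metabolic genes. The T cells were injected into Rosa26-Cas9 mice that bore KPC_OVA tumours in the pancreas, a ductal adenocarcinoma line that was engineered to express ovalbumin. Recipients received anti-PD-1, the blocking antibody against the inhibitory receptor PD-1, or control IgG, and CD90.1+ OT-I cells were sorted from the primary tumour 7 days after transfer. All groups shared constitutive Cas9, the lentiviral vector and the transferred receptor, and the sources give the age of donors and recipients as ranges and not by group. The data were 3 anti-PD-1 libraries and 1 IgG library of single cells, and the sources used here give the number of mice per treatment but not how many were pooled into each library. Because of the single IgG library, any difference between treatments is measured against a single library.

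Glycolysis splits glucose into pyruvate in the cytosol, and activated T cells are known for running it fast and exporting the product as lactate. Where oxygen is short, the prolyl hydroxylases encoded by Egln1 and Egln3 stop marking the HIF-1α protein for destruction, and the stabilised factor, with its partner ARNT, binds hypoxia response elements that hold the core RCGTG. Glucose transporters, most glycolytic enzymes, Pdk1, Vegfa and the Egln genes themselves are known targets, so the members form a pathway and its oxygen-dependent control. Hif1a itself is regulated mainly through its protein, which these libraries do not measure.

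The upstream sequences are shown for 2 genes that defined the hypoxia-high cells described further on, Bnip3 and Ankrd37, and for Ldha, Pgk1 and Tpi1, which were higher in those cells. In the 250 bases before the start, the letters ACGTG or GCGTG were searched on both strands, where the palindrome CACGTG counted once. RefSeq entries for GRCm38.p6, the same assembly as mm10, matched 29 members, and Bnip3l, Ndrg1 and Slc2a3 had no entry. Of the 29 matched members, 27 (93.1%) had a core before at least 1 listed start, against 41.5% of 27025 genes with an entry. Counted by starts, 36 of 45 (80%) held a core against 38.6% of 32851, and 15.6% held at least 3 against 4.87%. Bnip3, on chromosome 7, lies on the minus strand and had 4 cores at chr7:138909507-138909756. Ankrd37, also on the minus strand, had 4 at chr8:45999851-46000100, of which 2 overlap in the stretch CACGCGTG. Ldha, on the plus strand, had 3 at chr7:46845554-46845803, and Pgk1, on the plus strand, had 2 at chrX:106186850-106187099. Tpi1, on the minus strand at chr6:124814159-124814408, had none and is shown for contrast. Sequences run 5′ to 3′ along the strand of the gene, and capitals mark the cores. The background was every gene with an entry and was not matched for base composition or expression. A match is a description of letters and not of a bound site.
Bnip3: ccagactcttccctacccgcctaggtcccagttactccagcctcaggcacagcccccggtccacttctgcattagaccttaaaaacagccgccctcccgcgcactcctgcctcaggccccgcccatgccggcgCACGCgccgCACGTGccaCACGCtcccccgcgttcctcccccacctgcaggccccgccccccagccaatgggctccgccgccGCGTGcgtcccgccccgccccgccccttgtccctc
Ankrd37: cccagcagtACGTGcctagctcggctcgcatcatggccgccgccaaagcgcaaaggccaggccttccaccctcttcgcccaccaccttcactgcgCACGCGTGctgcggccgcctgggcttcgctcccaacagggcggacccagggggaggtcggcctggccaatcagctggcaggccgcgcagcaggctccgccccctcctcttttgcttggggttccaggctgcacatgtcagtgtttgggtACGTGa
Ldha: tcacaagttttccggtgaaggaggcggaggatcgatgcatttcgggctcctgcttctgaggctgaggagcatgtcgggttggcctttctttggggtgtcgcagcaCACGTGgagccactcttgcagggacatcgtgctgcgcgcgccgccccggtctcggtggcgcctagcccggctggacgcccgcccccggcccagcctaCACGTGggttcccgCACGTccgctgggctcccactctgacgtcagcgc
Pgk1: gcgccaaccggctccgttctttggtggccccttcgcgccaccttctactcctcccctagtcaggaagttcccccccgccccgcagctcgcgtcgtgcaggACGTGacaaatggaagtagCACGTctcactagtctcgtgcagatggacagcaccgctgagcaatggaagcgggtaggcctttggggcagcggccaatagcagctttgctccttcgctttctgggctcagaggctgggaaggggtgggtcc
Tpi1: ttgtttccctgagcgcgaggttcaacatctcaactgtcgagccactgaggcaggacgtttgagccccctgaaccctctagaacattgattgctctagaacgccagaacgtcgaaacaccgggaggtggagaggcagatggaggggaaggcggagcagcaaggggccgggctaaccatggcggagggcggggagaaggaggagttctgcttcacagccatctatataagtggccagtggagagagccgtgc

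Cells with exactly 1 called guide that passed the filters numbered 2535, 2597 and 6432 under anti-PD-1 (replicates 1, 2 and 3) and 11495 under IgG, with median UMI counts of 16829, 16325, 12084 and 6329. Levels are given as CPM, counts scaled to a common total, of the gene UMIs summed over the cells of a library, and the titles of replicates 1 and 2 share a name that the other libraries do not have. The T-cell label held, since each of the 8 markers of CD8 T cells was at 241.5 CPM or more in every library. Markers of B cells stood at 145 CPM in replicate 3 and below 10 CPM in the other 3 libraries, and barcodes shared between pairs of libraries numbered 3 to 18. Fewer cells of a type and less RNA per cell cannot be told apart in such sums.

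All members were detected in all 4 libraries, over a wide range of levels. Gapdh, the dehydrogenase that makes the NADH of glycolysis, was the most abundant, at 2656, 2746 and 3484 CPM under anti-PD-1 and 3122 CPM under IgG. Ldha, which turns pyruvate into lactate, followed at 1191, 1255 and 1438 CPM against 1374 CPM, and Aldoa, the main aldolase, at 965, 1019 and 1359 CPM against 1218 CPM. At the other end stood Vegfa, the angiogenic growth factor, at 2.15 to 5.22 CPM, Pfkm, the muscle phosphofructokinase, at 2.77 to 3.41 CPM, and Pfkfb4 at 0.553 to 0.645 CPM. These are levels of 3′ tags, and processed pseudogenes of Gapdh, Aldoa, Ldha, Pkm, Eno1, Tpi1 and Pgam1 can share reads with their genes. A further gene listed under the symbol Aldoa had at most 2 UMIs in a library and was not tested.

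No member passed the test between anti-PD-1 and IgG, and 28 of the 32 had a lower estimate under anti-PD-1. The median log2 fold change of the members was −0.16, against 0.01 over the 13810 genes tested. The background was as low, with 0% of all genes called by edgeR's quasi-likelihood test, 282 genes at an unadjusted p under 0.05 and 0.0249% called by DESeq2. A single member, Mxi1, a MYC antagonist induced by hypoxia, had an unadjusted p under 0.05 (42.7, 38.5 and 41.8 CPM against 51.8 CPM, edgeR adjusted p = 0.987). Eno1, the enolase of lower glycolysis, had every anti-PD-1 library above IgG, with 557, 522 and 544 CPM against 454 CPM (0.27 ± 0.12, edgeR adjusted p = 0.987), and did not pass the test either. The IgG and anti-PD-1 libraries came from different recipients, but whether the 3 anti-PD-1 libraries came from separate mice was not given in the sources used here, so p-values measure only the spread between these libraries.

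The largest estimate belonged to Egln1, the main HIF prolyl hydroxylase. Its levels were 107 and 102 CPM in the libraries of anti-PD-1 replicates 1 and 2, against 36.7 CPM in that of replicate 3 and 35.2 CPM in the IgG library. Replicate 3 thus sat beside IgG and far from the other anti-PD-1 libraries, and the log2 fold change of 1.23 ± 0.63 (SE) did not pass the test (edgeR adjusted p = 0.987). P4ha1, a collagen prolyl hydroxylase subunit, had 34.8 and 33.8 CPM in replicates 1 and 2, 68.5 CPM in replicate 3 and 65.0 CPM in IgG. Aldoc, a second aldolase, had 13.7 and 11.8 CPM, then 31.0 CPM in replicate 3 and 26.4 CPM in IgG. Vegfa had 2.15 and 2.64 CPM against 5.22 CPM in replicate 3 and 4.70 CPM in IgG. The same split was seen for Ndrg1, a stress-induced gene, with 7.74, 7.97, 12.3 and 13.0 CPM, and for Ankrd37, an ankyrin-repeat HIF target, with 23.9, 27.9, 47.0 and 44.3 CPM. The log2 fold changes of these 5 members lay between −0.50 and −0.42, and those of P4ha1, Aldoc, Vegfa and Ankrd37 turned positive (0.072, 0.23, 0.15 and 0.083) once the pair of libraries was a term in the model. Since replicates 1 and 2 were both anti-PD-1, that fit sets replicate 3 against IgG, 1 library each, with the spread taken from the other pair. It called Hk2, against 2.05% of all genes, a difference between those libraries that has no replicate. Replicate 3 decided the count, because without it 16 members passed, 15 lower and Egln1 higher, against 24.9% of all genes, with replicates 1 and 2 then set against IgG alone.

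**Figure D1:**
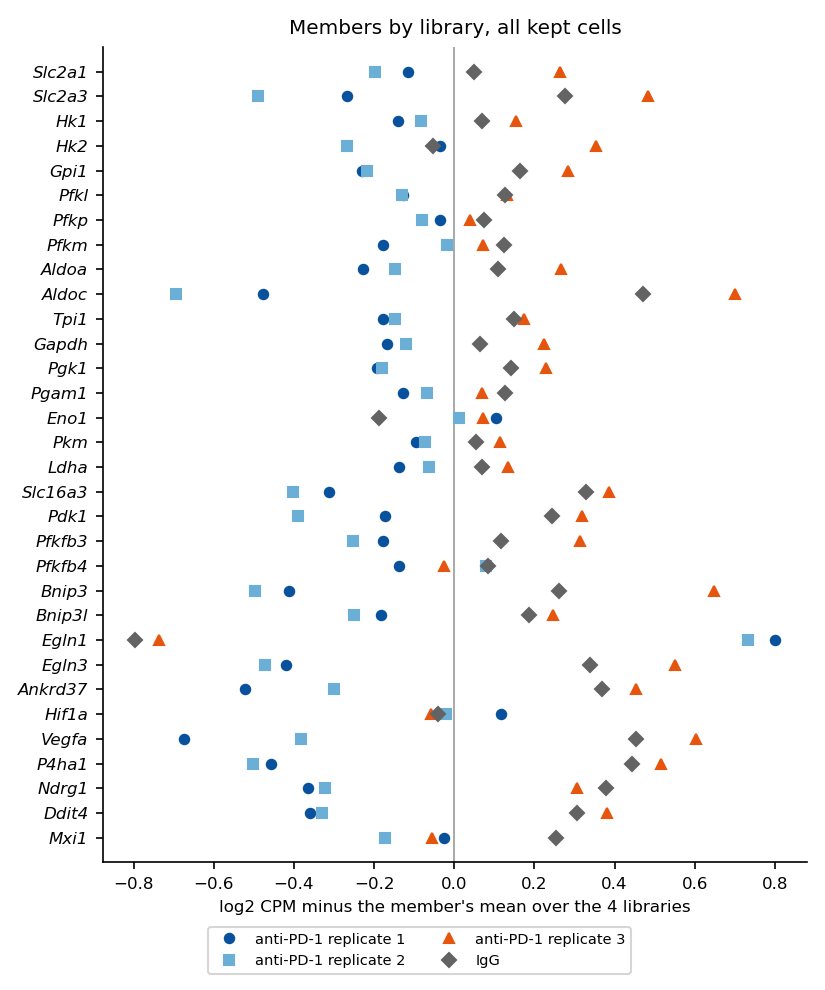
Each member's log2 CPM minus its mean over the 4 libraries (horizontal axis), with a point for each library. Egln1 lies far to the right in anti-PD-1 replicates 1 and 2 and to the left in replicate 3 and IgG, and Aldoc, P4ha1, Bnip3 and Vegfa lie the other way round.

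The members were then compared between the pairs of libraries, replicates 1 and 2 against replicate 3 and IgG, a comparison added after the values had been seen. The study's methods integrate cells over batches, and which libraries formed a batch was not given in the sources used here. In replicates 1 and 2, 19 members were lower and 1 was higher, against a background of 14.5% of 13275 genes lower and 14.5% higher (29% in all). The split had first been seen in the levels of Egln1, P4ha1, Aldoc, Vegfa, Ndrg1 and Ankrd37, so these counts and the values of single members describe that split and are no test of it. The log2 fold change was 1.56 ± 0.07 for Egln1, the member called higher, and −1.15 ± 0.10 for Aldoc, −1.02 ± 0.15 for Vegfa, −0.93 ± 0.08 for P4ha1, −0.90 ± 0.11 for Bnip3, a mitophagy receptor, and −0.87 ± 0.10 for Egln3. Hif1a (0.12 ± 0.08) and Eno1 (0.14 ± 0.10) also had positive estimates. In the order of the raw levels, 26 members had both replicates 1 and 2 below both other libraries, where 36% of all genes did, and 2 had both above, where 29.7% did. Of the glycolytic members, 11 of 21 passed, among them Slc2a3, Gpi1, Pgk1, Slc16a3 and Pdk1, while Gapdh, Pkm, Ldha and Eno1 did not.

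The difference between the pairs was also present without IgG, where 19 members were lower and 1 higher among the anti-PD-1 libraries alone, against 28.2% of all genes in either direction, with a median log2 fold change of −0.41 against −0.32 over all 4 libraries. With the others left out in turn, 14 members passed without replicate 1 or replicate 2, against 13.5% and 13.7% of all genes, and 16 without replicate 3, against 24.9%. After each cell was thinned to 2000 UMIs, 18 were lower and 1 higher, against 16.9% of all genes. In sgNT cells, which carry nontargeting guides, 13 were lower and 1 higher, against 17.03%. Leaving out the cells with 10 or more UMIs of other cell types, which included the B-cell markers of replicate 3, gave 19 lower and 1 higher, against 30.5%. Egln1 was higher in replicates 1 and 2 in each state, with 141, 133, 49.6 and 44.6 CPM in exhausted cells of replicates 1, 2 and 3 and IgG and 83.6, 82.4, 36.4 and 34.5 CPM in precursor cells. Median UMI counts and the mitochondrial share, 3.18% and 2.20% in replicates 1 and 2 against 1.38% and 1.91%, moved with the pairs as well, and the part of the mitochondrial share was not tested.

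States were gated on marker lists that held no member. Cycling cells had a high mean of G1/S and G2/M genes, exhausted cells inhibitory receptors and Tox, precursor cells Tcf7, Slamf6 and other stem-like genes, and effector cells cytokine genes. A cell above the cycling cut was counted as cycling whatever its other scores, so exhausted, precursor and effector cells all lay below that cut. A gate is a range of a score and not a cell type, and 7.94% to 9.20% of the cells of a library lay within 0.1 SD of a cut. Cycling cells made up 27.8% to 31.1% of a library, exhausted cells 17.8% to 19.4%, precursor cells 11.6% to 13.4% and effector cells 12.8% to 15.1%. The remaining 23.3% to 27.6% were unassigned and entered no contrast of states. Of the 32 members, 31 passed the filter on low counts, and Pfkfb4 did not. Exhausted cells had the highest mean level of 27 of the 31 members, against 30.9% of the 11201 genes tested. In all 4 libraries they were highest for 25 of the members, against 1220 of the 11201 genes. The members with the highest mean level in another state were Hk2 and Pgam1 in effector cells, Ldha in cycling cells and Ddit4 in precursor cells. Ldha was not highest in cycling cells of every library. Precursor cells were lowest for 16 members (51.6%), against 18.6% of all genes, and cycling cells for 13 (41.9%), against 26.9%.

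The clearest contrast was between precursor and exhausted cells. In precursor cells 28 of 31 members were lower and none was higher, against a background of 14.6% of genes lower and 14.6% higher (29.3% in all), and their median log2 fold change was −0.51 against 0.00 over all genes. All 4 genes of glucose uptake and phosphorylation were lower, 6 of 7 of upper glycolysis, all 5 of lower glycolysis, all 3 of pyruvate and lactate handling and 10 of 11 of the hypoxia response. Pfkm (−0.29 ± 0.17), Pfkfb3 (−0.07 ± 0.09) and Ddit4 (0.13 ± 0.07) did not pass. Markers of other cell types were low in both states but moved with them. The 3 endothelial genes summed to 12.6 to 21.6 CPM in precursor cells and 6.31 to 8.996 CPM in exhausted cells, the 10 myeloid genes to 14.5 to 29.1 CPM against 13.5 to 18.02 CPM, and the 6 epithelial or tumour genes to 8.17 to 11.2 CPM against 13.5 to 19.7 CPM. Without the cells that held 10 or more UMIs of other cell types, 4 to 11 in a library, 28 members were lower and none was higher, against 29.2% of all genes, and the part of the marker levels in the remaining cells was not tested. The median mitochondrial share was higher in precursor than in exhausted cells of each library, 1.66% to 3.55% against 1.37% to 3.22%, and its part was not tested.

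Aldoc had 10.5, 11.8, 27.4 and 20.8 CPM in precursor cells (anti-PD-1 replicates 1, 2 and 3, then IgG) and 37.1, 28.5, 57.8 and 56.8 CPM in exhausted cells. The groups did not overlap, and the log2 fold change was −1.35 ± 0.12 (SE, n = 4 libraries, edgeR adjusted p = 1.8e-08). Bnip3 had 35.4, 45.6, 82.2 and 62.8 CPM against 113, 80.8, 204 and 156 CPM, which overlapped across libraries but was lower in precursor cells of each, a log2 fold change of −1.29 ± 0.08 (edgeR adjusted p = 2.2e-10). Vegfa, with 1.68, 2.07, 4.39 and 3.19 CPM against 3.30, 3.63, 8.63 and 8.42 CPM, was lower in precursor cells of every library, although the ranges overlapped across libraries (−1.10 ± 0.16, edgeR adjusted p = 1.7e-05). Slc2a3, the high-affinity glucose transporter GLUT3, had 38.4, 31.1, 59.6 and 52.0 CPM against 70.3, 63.8, 128 and 108 CPM. It was lower in each library without overlap of the groups, by 1.03 ± 0.06 on the log2 scale (edgeR adjusted p = 4.7e-11). Ankrd37 had 20.3, 18.0, 35.7 and 33.5 CPM against 36.1, 33.7, 69.9 and 59.2 CPM (−0.88 ± 0.09, edgeR adjusted p = 8.0e-08). The 5 genes of lower glycolysis had a median of −0.51, and Gapdh among them had 2240, 2269, 2774 and 2610 CPM against 3167, 3148, 4254 and 3614 CPM (−0.51 ± 0.03). Without the library as a block, 15 members passed, all lower, against 10.3% of all genes in either direction.

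In effector cells, 21 members were lower than in exhausted cells and 3 were higher, against 23.4% of genes lower and 24.4% higher (47.9% in all). The epithelial or tumour genes moved with this contrast too, at 9.35 to 14.6 CPM in effector cells and lower than in exhausted cells of each library, and their part was not tested. Aldoc had 9.92, 8.49, 31.1 and 23.98 CPM in effector cells, below the exhausted values given above in each library (−1.19 ± 0.11, edgeR adjusted p = 2.3e-08). Ddit4, an mTORC1 inhibitor induced by stress, had 26.3, 17.7, 35.5 and 36.6 CPM against 44.6, 46.8, 75.0 and 72.1 CPM, with no overlap (−0.94 ± 0.08, edgeR adjusted p = 4.4e-09). Its levels in precursor cells were 50.1, 47.4, 83.6 and 79.1 CPM, so that effector cells stood apart from both. Vegfa (−0.88 ± 0.15), Bnip3 (−0.79 ± 0.08) and Mxi1 (−0.71 ± 0.08) were also lower, with edgeR adjusted p of 5.2e-05 or less. Mxi1 had 34.1, 30.7, 41.9 and 52.6 CPM in effector cells and 71.8, 59.5, 66.8 and 84.7 CPM in exhausted cells, without overlap.

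A few members went the other way. Hk2, the inducible hexokinase, had 40.0, 35.6, 51.0 and 38.7 CPM in effector cells and 24.3, 21.6, 38.7 and 29.4 CPM in exhausted cells, higher in each library by 0.61 ± 0.08 on the log2 scale (edgeR adjusted p = 1.4e-06). Pgam1, phosphoglycerate mutase, had 451, 480.5, 505 and 537 CPM against 394, 405, 482 and 475 CPM (0.27 ± 0.04, edgeR adjusted p = 4.4e-06). Ldha passed with 0.09 ± 0.03 but was higher in 2 of 4 libraries by CPM, and its estimate was −0.01 ± 0.03 when total counts set the scale. That scale moved the median of all genes from −0.03 to −0.13 in this contrast and gave 28 members lower and 2 higher. Without the library as a block, 6 were lower and 1 higher, against 27.2% of all genes in either direction.

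**Figure D2:**
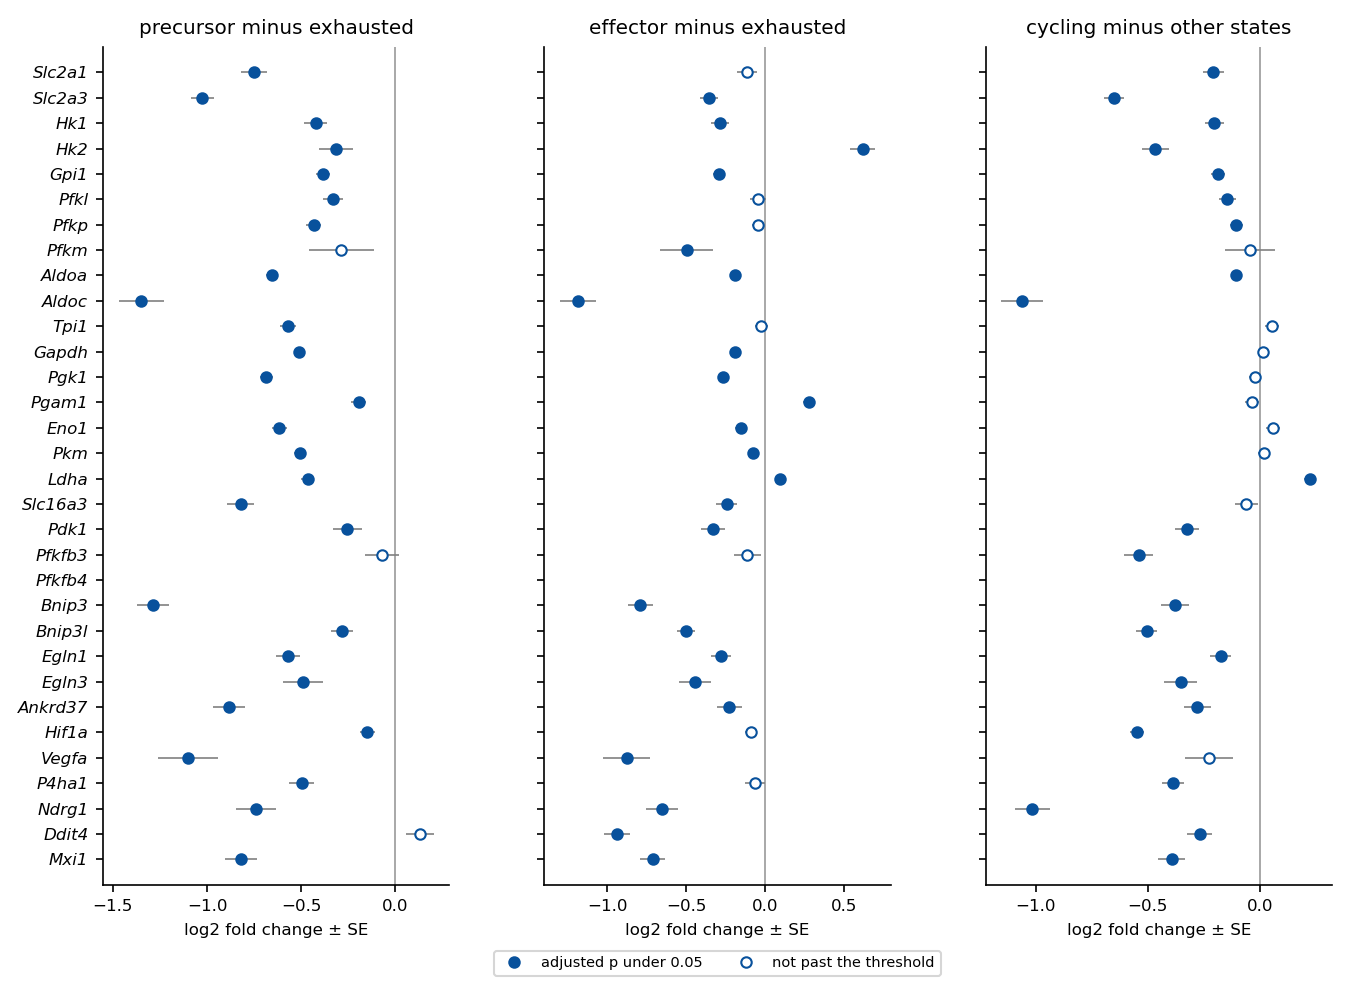
Log2 fold changes of the members in 3 contrasts of states, with bars for the standard error, filled points for an adjusted p under 0.05 and open points for the others. In precursor minus exhausted cells 28 of 31 members are filled and left of 0, and Pfkfb4, which was not tested, has no point.

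Cycling cells were compared with the mean of the other 3 states, and 21 members were lower and 1 higher, against 31.7% of genes lower and 28.1% higher (59.8% in all). The hypoxia response was lower for 10 of 11 members and uptake and phosphorylation for all 4, whereas none of the 5 genes of lower glycolysis passed. Aldoc had 9.87, 6.98, 15.5 and 14.5 CPM in cycling cells (−1.06 ± 0.09, edgeR adjusted p = 2.2e-09) and Ndrg1 had 5.47, 5.37, 7.18 and 8.25 CPM against 14.0, 11.8, 24.4 and 23.9 CPM in exhausted, 9.22, 9.73, 13.4 and 13.0 CPM in precursor and 8.63, 7.76, 12.5 and 15.6 CPM in effector cells (−1.01 ± 0.08 against their mean, edgeR adjusted p = 4.3e-10). Slc2a3 (−0.65 ± 0.04), Hif1a (−0.55 ± 0.03) and Pfkfb3 (−0.54 ± 0.06) were next, with edgeR adjusted p of 2.8e-07 or less. Hif1a had 253, 223, 211 and 217 CPM in cycling cells and between 289 and 378 CPM in the other states, so the groups did not overlap. Ldha was higher in cycling cells, at 1244, 1337, 1581 and 1504 CPM (0.22 ± 0.03, edgeR adjusted p = 4.0e-07), with 1223, 1274, 1502 and 1413 CPM in exhausted cells. Effector cells had 1252, 1294, 1407 and 1408 CPM, above cycling cells in replicate 1. Without the library as a block, 9 were lower and 1 higher, against 36.1% of all genes in either direction. Myeloid genes stood at 7.61 to 8.77 CPM in cycling cells and 7.61 to 29.1 CPM in the other 3 states. Cycling cells were also the deepest, with a median of 9241 UMIs in IgG and up to 24188 in replicate 1.

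Within the cycling gate, cells were split by the higher of their G1/S and G2/M scores, and 14 of 31 members were higher in G2/M cells and 5 lower, against 22.5% and 23.6% of genes (46.1% in all). The hypoxia response rose for 8 of its 11 members and fell for none. Ndrg1 had 5.56, 6.69, 9.12 and 9.21 CPM in G2/M cells and 5.37, 3.95, 5.31 and 7.19 CPM in G1/S cells (0.50 ± 0.12, edgeR adjusted p = 0.0032). Ddit4 (0.44 ± 0.07) and Egln3 (0.44 ± 0.09) were also higher in G2/M cells of each library. Aldoc fell by 0.70 ± 0.09 on the log2 scale, with 8.15, 4.85, 11.3 and 11.7 CPM against 11.6, 9.26, 19.6 and 17.7 CPM (edgeR adjusted p = 5.2e-06), and Hk2 fell by 0.38 ± 0.07. In lower glycolysis Pgam1 and Pkm were lower in G2/M, by 0.08 ± 0.02 and 0.11 ± 0.02 on the log2 scale, and Ldha by 0.12 ± 0.02. These differences were small beside the spread between libraries. Without the library as a block no member passed, while 17.5% of all genes did.

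**Figure D3:**
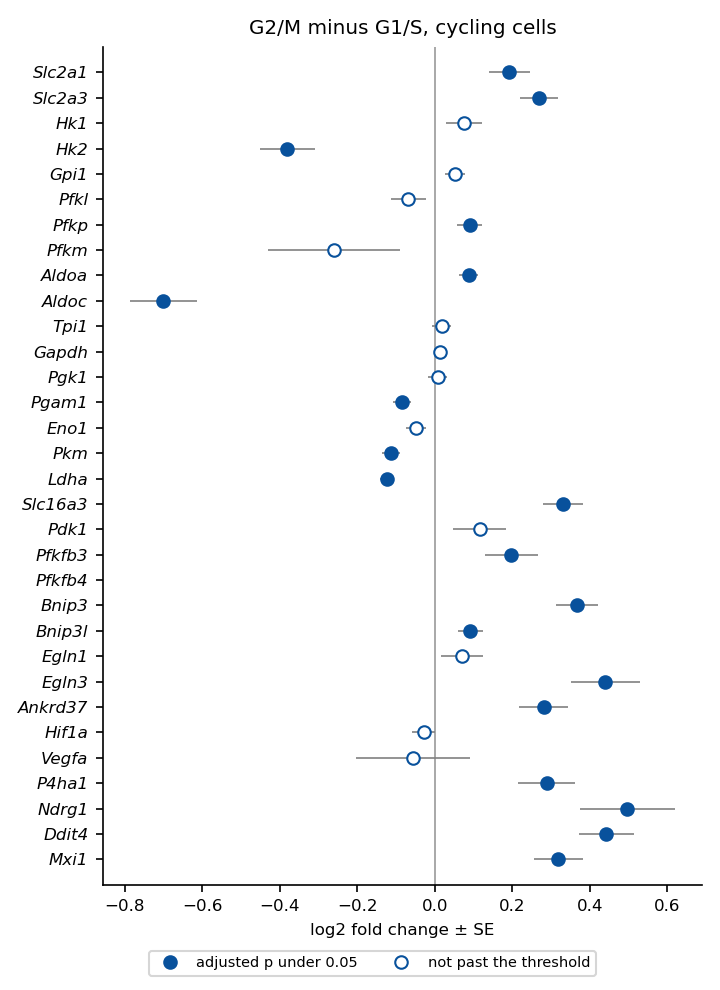
Log2 fold changes of the members between G2/M and G1/S cells of the cycling gate, with bars for the standard error and filled points for an adjusted p under 0.05. Aldoc lies farthest left and Ndrg1 farthest right.

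A change of the state differences with treatment was not detectable. In the 3 interaction tests of edgeR no member passed and none had an unadjusted p under 0.05, and the background was 0%, 0.00849% and 0% of 11784 genes. DESeq2 called no member either. With a single IgG library, this count does not show that the states respond alike.

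Hypoxia-high cells were then defined in each library as the 10% of cells with the largest share of UMIs in Bnip3, Bnip3l, Egln1, Egln3, Ankrd37, P4ha1, Ndrg1 and Vegfa together. The last cells inside the gate had 1076, 862, 786 and 1112 CPM of these genes in IgG and replicates 1, 2 and 3, within 2 CPM of the first cells outside. The gate genes themselves were 3.25 to 8.84 times higher in these cells as a consequence of the gate, and carry no test. Only the other 24 members were tested.

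All 24 of them were higher in hypoxia-high cells, against 19.5% of 12605 genes higher and 19.5% lower (39.1% in all), and their median log2 fold change was 1.08 against 0.01 over all genes. The glucose transporters were among the largest. Slc2a3 had 123, 114, 225 and 179.9 CPM in hypoxia-high cells of replicates 1, 2, 3 and IgG and 36.0, 29.9, 59.6 and 53.7 CPM in the other cells (1.88 ± 0.05, edgeR adjusted p = 3.7e-15). Slc2a1, GLUT1, had 106, 99.6, 135 and 113 CPM against 31.1, 29.4, 41.3 and 36.3 CPM (1.75 ± 0.04, edgeR adjusted p = 4.2e-15). The groups did not overlap for either transporter, nor did they for Slc16a3, the lactate exporter MCT4, with 191, 175, 251 and 225 CPM against 46.9, 44.6, 83.7 and 82.7 CPM (1.77 ± 0.07). Aldoc had 41.9, 43.0, 79.7 and 68.1 CPM against 10.6, 8.34, 25.9 and 22.3 CPM (1.86 ± 0.08) and Mxi1 99.4, 87.0, 100.1 and 122 CPM against 36.4, 33.2, 35.7 and 44.9 CPM, again without overlap.

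By step of the pathway, the median log2 fold change was 1.57 over the 4 genes of uptake and phosphorylation, 1.08 over the 7 of upper glycolysis and 0.93 over the 5 of lower glycolysis. Gapdh was at 4439, 4507, 5863 and 5060 CPM against 2459, 2552, 3237 and 2930 CPM. Pdk1, the kinase that inhibits the pyruvate dehydrogenase complex, rose by 1.34 ± 0.06 and Ldha by 0.77 ± 0.03 on the log2 scale. Hif1a had the smallest difference, 0.54 ± 0.04, with 412, 349.7, 373 and 359.6 CPM against 283, 259.8, 250.2 and 256 CPM. Pfkm was higher in 3 of 4 libraries. Median UMI counts of hypoxia-high and other cells were close, 5732 and 6403 in IgG and 16386 and 16863 in replicate 1, and after thinning to 2000 UMIs 22 of 23 tested members passed, against 13.5% of all genes. The median mitochondrial share was lower in hypoxia-high cells of each library, 1.20% to 2.97% against 1.41% to 3.20%, and its part was not tested. With Bnip3 alone as the gate, all 24 passed, against 35.2%.

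**Figure D4:**
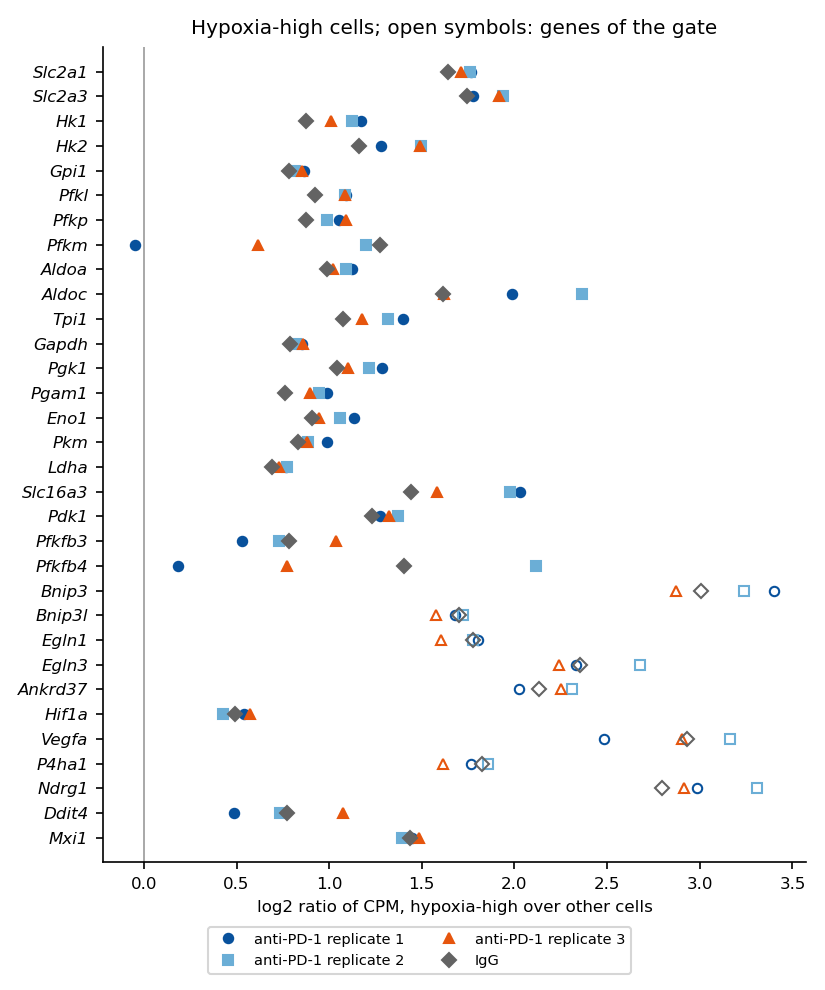
Log2 ratio of CPM in hypoxia-high over other cells for each member, with a point for each library, filled for the 24 tested members and open for the 8 genes of the gate. All filled points lie right of 0 except Pfkm in anti-PD-1 replicate 1.

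The other genes of the pathway were taken from lists that, like the members, were chosen with earlier results of these data known. Of 26 tested genes of the wider hypoxia response, 24 were higher in hypoxia-high cells and 1, Car12, was lower, with a median of 0.95 on the log2 scale. P4ha2, a second collagen prolyl hydroxylase subunit (3.55 ± 0.31), Ak4, a mitochondrial adenylate kinase (2.82 ± 0.16), and Ero1l, an oxidase of the endoplasmic reticulum (1.96 ± 0.05), were among the largest. Isoforms and side branches of glycolysis had 3 of 14 higher and 3 lower, near the 19.5% of all genes in each direction. Pgm1 and Galk1 were among the higher ones, and the lower ones were Eno3 (−0.57 ± 0.07), Adpgk (−0.53 ± 0.14) and Tigar (−0.40 ± 0.12). Of the 7 genes of the pentose phosphate pathway none was higher, and Taldo1 and Rpia were lower. A further list held the pyruvate carrier, the pyruvate dehydrogenase complex and its phosphatases and kinases, which act in opposite directions. Of its 9 tested genes none was higher and 2 were lower, again near that share. The lower ones were the subunits of the pyruvate carrier, Mpc1 by 0.32 ± 0.04 and Mpc2 by 0.24 ± 0.04 on the log2 scale. In effector against exhausted cells 24.4% of all genes were higher and 23.4% lower. There, 6 of 8 tested genes of this mixed list were higher and none lower, with Mpc1 at 0.47 ± 0.05 and Dlat at 0.42 ± 0.07. In precursor against exhausted cells, where 14.6% of all genes were called in each direction, 3 of these 8 were higher and none lower, with Mpc1 at 0.48 ± 0.05. The wider hypoxia response had 3 of 24 genes higher and 10 lower in either contrast, the other genes of glycolysis 2 of 11 higher and 3 lower in precursor and 5 higher and 2 lower in effector cells, and the pentose phosphate pathway 1 of 7 higher and 3 lower in precursor and 4 higher and 1 lower in effector cells. Slc16a1, the lactate and pyruvate carrier MCT1, was among the higher genes in both, at 0.37 ± 0.12 and 1.03 ± 0.11.

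Hypoxia-high cells were found in each state, most often among exhausted cells. Their share of exhausted cells was 21.0% in replicate 1 (95% exact Clopper-Pearson interval 17.4% to 25.1%), 17.4% in replicate 2 (14.1% to 21.1%), 20.4% in replicate 3 (18.2% to 22.7%) and 18.7% in IgG (17.0% to 20.4%). The highest share in any other state was 11.5% (8.45% to 15.1%), in effector cells of replicate 1, so exhausted cells stood above the rest in each library. Cycling cells had the lowest shares, 4.70% to 7.08%, and precursor cells had 7.36% to 8.60%. The intervals cover counting error only. Summed over their 8 markers, exhaustion genes were at 1363 to 1668 CPM in hypoxia-high cells and 952 to 1199 CPM in the other cells, and G1/S genes were lower in hypoxia-high cells of each library, 575 to 778 CPM against 909 to 1117 CPM.

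Within each state the members still rose with the gate. In exhausted cells alone, 22 of 23 tested members outside the gate were higher in hypoxia-high cells, with 22 of 23 in cycling, 21 of 23 in precursor and 22 of 22 in effector cells and none lower, against 20.6%, 19.7%, 5.21% and 14.3% of all genes called in either direction. The hypoxia-high cells were also taken out of the state sums, a step added after the values were seen. It removes cells by the level of 8 of the members counted, and more of the exhausted cells than of the other states, so smaller differences follow from the removal itself. Precursor cells then had 21 members lower than exhausted cells and 1 higher, Ddit4 (0.26 ± 0.07), against 26.0% of all genes in either direction. Effector cells had 9 lower and 4 higher, against 46.8% of all genes. The higher ones were Tpi1, triose phosphate isomerase (0.14 ± 0.04), Hk2 (0.84 ± 0.09), Pgam1 (0.44 ± 0.05) and Ldha (0.21 ± 0.04). In cycling cells 15 were lower and 7 higher, against 59.3% of all genes, and the higher ones were Eno1, Tpi1, Gapdh, Pkm, Ldha, Slc16a3 and Pgk1. Markers of other cell types moved with the gate in part. The 10 myeloid genes stood together at 12.8 to 20.04 CPM in hypoxia-high cells and 9.86 to 13.4 CPM in the other cells, higher in hypoxia-high cells of each library, and the 6 epithelial or tumour genes at 8.25 to 19.7 CPM against 11.3 to 13.98 CPM in 3 of the libraries. In replicate 2 the epithelial or tumour genes were at 122 CPM and the 4 fibroblast genes at 85.3 CPM in hypoxia-high cells, against 12.6 and 0.276 CPM in the other cells. Without the cells that held 10 or more UMIs of other cell types, of which 0 to 3 were hypoxia-high in a library, all 24 members passed, against 40.1% of all genes. The part of the lower marker levels in the remaining cells was not tested.

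**Figure D5:**
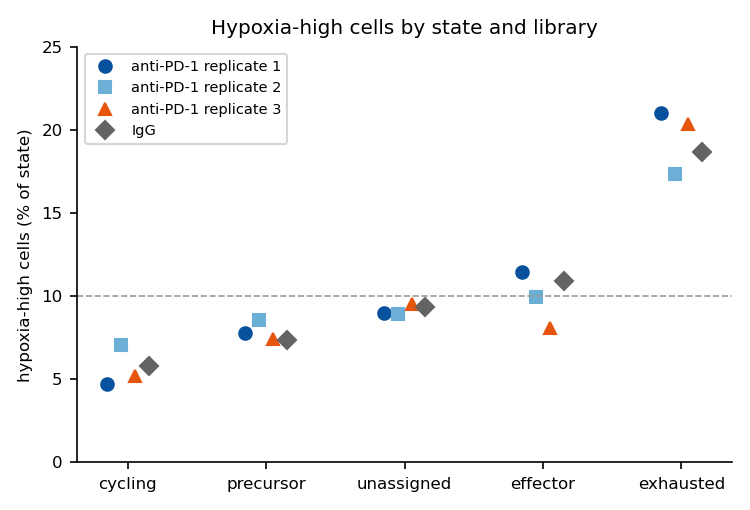
Share of hypoxia-high cells in each state, in percent of the cells of that state, with a point for each library and a dashed line at the 10% that the gate takes of a library. Exhausted cells lie between 17.4% and 21.0%, above the other states.

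Egln1 took a different part in the gate sum in the pairs of libraries, with a Pearson correlation across cells of 0.711 and 0.695 in replicates 1 and 2, 0.417 in replicate 3 and 0.359 in IgG. Across single cells, the levels of the members followed the summed share of the gate genes to different degrees. The mean Pearson correlation over the 4 libraries was 0.506 for Tpi1, 0.501 for Aldoa, 0.499 for Pgk1, 0.466 for Slc16a3 and 0.461 for Gapdh, and as low as 0.045 for Pfkm and 0.030 for Pfkfb4. These values are descriptions with no test, since cells of a library share its depth and abundant genes are measured more precisely. Among genes that were no members, the most alike were Higd1a (0.424), Fam162a (0.354), Bsg (0.340), Ero1l (0.338), Mif (0.326), H2-Ab1 (0.319), Hilpda (0.317), Prf1 (0.308), Eif4ebp1 (0.298) and Impa2 (0.296). Higd1a and Fam162a encode mitochondrial proteins induced by hypoxia, and Bsg encodes the chaperone that brings MCT4 to the membrane. H2-Ab1, a class II histocompatibility gene, was seen in 8.16% of cells in the library where it was rarest.

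Finally, cells with each targeting guide were set against sgNT cells within the 3 anti-PD-1 libraries, on sums per target and library with at least 10 cells. No member was itself a target. P-values were adjusted over all genes within each target and not across the 82 targets. Over 82 targets and 30 tested members, 8 of 2460 tests passed, 6 lower and 2 higher, against 0.05% of all tests over all genes, and 122 (4.96%) had an unadjusted p under 0.05. The 8 belonged to 4 targets, and only the 2 higher ones rested on more than 1 library. The 6 lower ones rested on 11 or 14 cells of a single library, which was assumed to vary like the other sums, so they compare cells of 1 library and are given as values with no p.

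With guides against Pik3cd, the p110δ subunit of PI3K, Hif1a was higher in each of the 3 libraries, at 573, 348 and 450.2 CPM against 280.4, 255 and 262 CPM in sgNT cells (log2 fold change 0.79 ± 0.14 over 263 cells, edgeR adjusted p = 2.2e-04). The groups did not overlap, and it was the call that remained with a minimum of 20 cells, but it did not pass without replicate 1 (0.66, edgeR adjusted p = 0.068), without replicate 3 (0.80, edgeR adjusted p = 0.31) or without the library as a block (edgeR adjusted p = 0.079). With guides against Cs, citrate synthase, Ndrg1 was at 2.80, 81.6 and 18.9 CPM against 7.31, 8.28 and 11.9 CPM (1.72 ± 0.41 over 100 cells, edgeR adjusted p = 0.0064). Replicate 2 decided that value, which was 0.37 without it and 0.12 without cells that carried markers of other cell types, and neither passed. Of the lower calls, 5 came from 11 cells of replicate 3 with guides against Dhodh, dihydroorotate dehydrogenase, for Gapdh, Pkm, Pgk1, Aldoa and Ldha. Gapdh was at 1612 CPM there against 3597 CPM in sgNT cells of that library. The remaining call was Gapdh with guides against Pigp, in 14 cells of replicate 3, at 2382 CPM against the same 3597 CPM.

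Targets next to glycolysis were also looked at. Guides against Pgam2, the muscle phosphoglycerate mutase, and G6pc, glucose-6-phosphatase, gave no call among the members and left 13 and 18 of 30 members with a higher estimate and medians of −0.02 and 0.04 on the log2 scale. Those against Mdh2, Idh3g and Slc25a11, of the mitochondria, had no member called either, with 11, 19 and 21 higher estimates. Over all 9419 genes tested, the calls with these targets were 1 for Pgam2, 0 for G6pc, 11 for Mdh2 and 1 each for Idh3g and Slc25a11. Each of these targets had 95 to 167 cells, and a test that did not pass does not show that the members were the same.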

How the data were processed

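Single-cell libraries (Chromium 3′ v3.1 with guide capture) were aligned to mm10 and counted by the authors with Cell Ranger 3.1.0, per the labels, and what they deposited are unnormalised UMI counts for each gene and cell, with the guides called in each cell. Of 56359 barcodes, 23805 had exactly 1 called guide, and 23059 were kept after removing cells beyond 3 median absolute deviations in log UMI count or above 10% mitochondrial counts. No doublet caller was run, and cells with more than 1 guide were left out. The members, the other lists and the gates were chosen with earlier results of these data known. States were gated at 0.5 SD of marker scores and hypoxia-high cells as the top 10% of each library. Counts were summed per library and state, phase or gate, or per guide target with at least 10 cells, and tested with edgeR 4.0.16 in R 4.3.3 (quasi-likelihood, TMM, filterByExpr, Benjamini-Hochberg over all genes tested, threshold 0.05), with the library as a block except between treatments and between pairs of libraries. SE is the absolute log2 fold change over the square root of F. Named members are the 6 largest absolute log2 fold changes between treatments and the 5 largest past the threshold, in the same direction in 4 libraries, elsewhere. Members named beyond these, and the comparison of library pairs, were chosen after their values were seen. Alternatives used DESeq2 1.42.0, RLE or total counts as the scale, no filter, cells thinned to 2000 UMIs, other gates, sgNT cells and cells without 10 or more UMIs of other cell types. Scripts were tested on simulated data. Total gene UMIs were 142945121 to 155974184 per library, and intervals cover counting error only. Promoter letters came from RefSeq, GRCm38.p6. Some items of the gene lists and targets are not reported here.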

Additional observations from a re-analysis of the deposited data

How the results depend on the processing

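The limits lie in the libraries. The single IgG library leaves treatment tested against 1 value, and the pairs of libraries, with treatment partly mixed in, gave more calls than the treatments did. With the library pair as a term, which leaves replicate 3 against IgG with no replicate, 1 member was called between treatments, and the log2 fold changes of P4ha1 (0.072), Aldoc (0.23), Vegfa (0.15) and Ankrd37 (0.083) reversed. Leaving out 1 library in turn gave 0 to 16 members between treatments (16 without replicate 3), 14 to 20 between pairs of libraries, 22 to 24 in cycling, 26 to 28 in precursor and 21 to 23 in effector cells, 15 to 20 between phases, 23 to 24 in hypoxia-high cells, 0 to 0 in the interactions and 1 to 7 among knockouts (1 without replicate 3). Where this left an arm with 1 library, that library was assumed to vary like the others. The share of all genes called in these fits was 0% to 24.9% between treatments, 13.5% to 28.2% between pairs of libraries, 53.03% to 57.04% in cycling, 22.1% to 26.5% in precursor and 40.3% to 43.9% in effector cells, 38.2% to 42.5% between phases and 32.9% to 37.2% in hypoxia-high cells. For interactions and knockouts the share is given only for the full fits, 0% to 0.00849% and 0.05%. Their counts with a library left out therefore stand without a background.

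Replicate numbers do not pair treatments, so the replicate block was the library itself, shared by the states, phases or gates cut from it. With no replicate block, 10 members passed in cycling cells, 15 in precursor cells, 7 in effector cells, 0 between phases and 23 in hypoxia-high cells, against 36.1%, 10.3%, 27.2%, 17.5% and 17.3% of all genes, with 1 call among knockouts. Knockouts also gave 1 call with a minimum of 20 cells, and neither knockout count is set against a share of all genes here. Without the hypoxia-high cells, which are removed by the level of 8 members, 13 members passed in effector against exhausted cells. The other counts stayed within 1.5 times of those reported under DESeq2, RLE, no filter, total counts as the scale, other gates and cells thinned to 2000 UMIs. Of 547 values of single named members under these alternatives, 510 kept direction and side of the threshold, 27 no longer passed, 6 newly passed and 4 reversed. The knockout fit without a filter on low counts was not run. The settings without hypoxia-high cells, within single states for that gate, with total counts as the scale and all those for pairs of libraries were chosen after seeing the data.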
